A study of Sus scrofa with 3 samples.

Results

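The proteasome subunits measured here were 23 porcine genes, read by 64 of the 43603 probes on the array. They were taken from the probes whose gene name is a proteasome subunit symbol of the series PSMA to PSMG (56 probes) or whose description names such a subunit (8 probes). The 23 genes stood among 6382 genes with a symbol. Of these members, 5 were the interferon-inducible subunits PSMB8, PSMB9, PSMB10, PSME1 and PSME2, with 13 probes, and 18 were the remaining subunits, with 51 probes. All 5 inducible subunits and 15 of the remaining 18 were well above background on all 3 arrays. The inducible subunits had their lowest signal in cells pretreated with Lactobacillus jensenii TL2937, between 1.28- and 1.49-fold below the cells without lactobacilli. Of all genes, 12.3% were at least 1.2-fold lower there. Each of the 15 remaining subunits lay within 1.2-fold, as did 3910 of all 4869 genes well above background on both arrays.

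The cells were PIE cells, non-transformed cultured cells that were set up from the intestine of an unsuckled newborn piglet. They were grown for 3 days, kept for 48 h in medium alone, with L. jensenii TL2937 or with Lactobacillus plantarum TL2766, washed, and then given ETEC PAMPs for 12 h, the molecular patterns of enterotoxigenic Escherichia coli that innate immune receptors recognise. The groups are called ETEC (medium, then PAMPs), TL2937+ETEC and TL2766+ETEC. Every group had 1 array, so no p-value and no error between cultures can be given. All 3 groups had received the PAMPs, and what the lactobacilli do alone cannot be told apart from a changed response to the PAMPs. The unchallenged cells of the design were not analysed here. RNA was measured from whole cultures, in which fewer cells of a type and less RNA per cell cannot be told apart.

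The proteasome is the barrel-shaped protease that degrades ubiquitin-tagged proteins. Its core has outer rings of alpha subunits and inner rings of beta subunits, of which PSMB5, PSMB6 and PSMB7 carry the catalytic sites. Interferon induces PSMB8, PSMB9 and PSMB10, which replace PSMB5, PSMB6 and PSMB7 in newly built cores to form the immunoproteasome, and PSME1 and PSME2, which together form the PA28 activator cap. These forms yield peptides that are well suited to MHC class I. The standard cap holds the ATPases of the PSMC series, which unfold substrates, and the non-ATPase subunits of the PSMD series, which bind and deubiquitinate them.

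Each probe is a synthetic strand of 60 bases, and its letters show which stretch of a transcript a value comes from. PSMB8 had a pair of probes that start at bases 630 and 653 of their target transcript, and the 37 bases in capitals are common to both, so they are not independent readings of that gene. Other probes of the inducible subunits also start closer together than 60 bases, such as those of PSMB10 at 878, 919 and 929. Their overlap was not examined.
PSMB8 probe at 630: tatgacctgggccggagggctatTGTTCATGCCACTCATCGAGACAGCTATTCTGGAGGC
PSMB8 probe at 653: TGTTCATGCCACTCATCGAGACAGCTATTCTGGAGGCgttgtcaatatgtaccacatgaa

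Inducible subunits and their constitutive counterparts are related proteins, so probes of both are shown to let their letters be compared. The capitals mark the longest run common to each pair, which was 7 bases for PSMB9 and PSMB6, 6 bases for PSME1 and PSME3 and 5 bases for PSME2 and PSME3. In PSME3 the capitals mark the run shared with PSME1, and the run shared with PSME2 is the last 5 of these bases. The probes of a pair lie at different places of their transcripts, and the run does not measure cross-hybridisation.
PSMB9 probe at 777: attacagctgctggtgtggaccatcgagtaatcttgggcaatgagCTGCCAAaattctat
PSMB6 probe at 576: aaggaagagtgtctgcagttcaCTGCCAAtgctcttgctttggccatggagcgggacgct
PSME1 probe at 507: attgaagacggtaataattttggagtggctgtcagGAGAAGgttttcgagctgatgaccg
PSME2 probe at 512: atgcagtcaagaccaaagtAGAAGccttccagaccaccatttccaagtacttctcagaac
PSME3 probe at 676: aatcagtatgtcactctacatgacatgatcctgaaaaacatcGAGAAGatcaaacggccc

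The 3 arrays had 75th percentiles of 459 to 503 and 60.9% to 62.5% of gene spots well above background, and no spot was saturated. Over 27 probes printed as 5 spots each, the median standard deviation of a log2 difference between arrays was 0.12 between TL2937+ETEC and ETEC, with a highest value of 0.45. It was 0.082 between TL2766+ETEC and ETEC, with a highest of 0.70, and 0.095 for the direct comparison of the lactobacillus arrays, with a highest of 0.52. These spreads cover spots and not cultures. The line is labelled epithelial, but of 11 epithelial markers measured, 5 were well above background on all 3 arrays and 4, among them EPCAM and KRT18, on none. All 8 mesenchymal markers and 5 of 6 endothelial markers were above background on all 3, as were 2 of 8 leukocyte markers, without PTPRC. Scaled intensities on the ETEC array were 251524 for VIM, 53683 for ACTA2 and 2529 for DES. The other mesenchymal markers were dim there: THY1 (82.8), DCN (59.1), COL1A2 (41.8), LUM (41.1) and PDGFRB (30.1). PECAM1 lay at 86641 and CDH5 at 60337. Of the epithelial markers, OCLN lay at 1140 and MUC1 at 224, while CLDN7 (20.4), CLDN3 (20.2) and KRT8 (19.8) were dim. In the order ETEC, TL2937+ETEC, TL2766+ETEC, the summed scaled intensities were 1492, 1260 and 1314 for the epithelial list. They were 307991, 287180 and 302239 for the mesenchymal list, 166205, 159984 and 159959 for the endothelial list and 695, 793 and 832 for the leukocyte list. A few bright genes carry these sums. While the endothelial sum fell, TEK differed by 0.85 and 0.71 from ETEC for TL2937 and TL2766 and KDR by 0.59 and 0.50. ACTA2 (-0.36 and -0.18) and OCLN (-0.31 and -0.24) went down, as did the sums of their lists. The part of these lists in the results was not tested.

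Values below are scaled intensities, the scanner's processed intensity brought to a common 75th percentile on each array, given in the order ETEC, TL2937+ETEC, TL2766+ETEC. A log2 difference is taken between arrays for the same probe, and a gene is read by its brightest probe. A gene is counted as lower or higher from a difference of 1.2-fold on, provided both arrays detected it, that is, had it well above background. Levels of different genes are not set against each other, since probes differ in how brightly they bind.

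PSMB8 encodes the inducible subunit that takes the place of PSMB5. Its scaled intensity was 1611, 1080.5 and 1322. It was highest without lactobacilli and lowest after TL2937, with TL2766 between them. The log2 difference from ETEC was -0.58 for TL2937 (1.49-fold lower) and -0.29 for TL2766 (1.22-fold lower). Its 3 probes gave -0.58 to -0.47 for TL2937 and -0.29 to -0.15 for TL2766.

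PSMB9, the inducible subunit that takes the place of PSMB6, lay at 31670.1, 22397 and 28965. The order of the arrays was that of PSMB8. The log2 difference from ETEC was -0.50 for TL2937 (1.41-fold lower) and -0.13 for TL2766 (1.09-fold lower). A further bright probe gave -0.49 and -0.13, and a dim one, with signals of 29.0, 22.8 and 25.5, gave -0.35 and -0.19.

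PSMB10, which takes the place of PSMB7, lay at 43574, 34153 and 43111. Only the TL2937+ETEC array was low, and the other pair of arrays lay close together. The log2 difference from ETEC was -0.35 for TL2937 (1.28-fold lower) and -0.02 for TL2766. The sign of the latter turned under other processing, over a range of -0.041 to 0.012. The 3 probes gave -0.35 to -0.23 for TL2937, so its least different probe fell short of 1.2-fold.

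PSME1, the alpha subunit of the PA28 cap, lay at 15000.1, 11405 and 13531. The TL2937+ETEC array was lowest and the ETEC array highest. The log2 difference from ETEC was -0.40 for TL2937 (1.32-fold lower) and -0.15 for TL2766 (1.11-fold lower), and the second probe, shown above, gave -0.42 and -0.15.

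PSME2, the beta subunit of that cap, lay at 32504, 25309 and 32529.8. Only the TL2937+ETEC array was low. The log2 difference from ETEC was -0.36 for TL2937 (1.28-fold lower) and 0.0011 for TL2766, whose sign turned under other processing (-0.042 to 0.028). The second probe, whose letters are shown above, lay at 20556, 16536 and 20592, with -0.31 for TL2937.

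**Figure D1:**
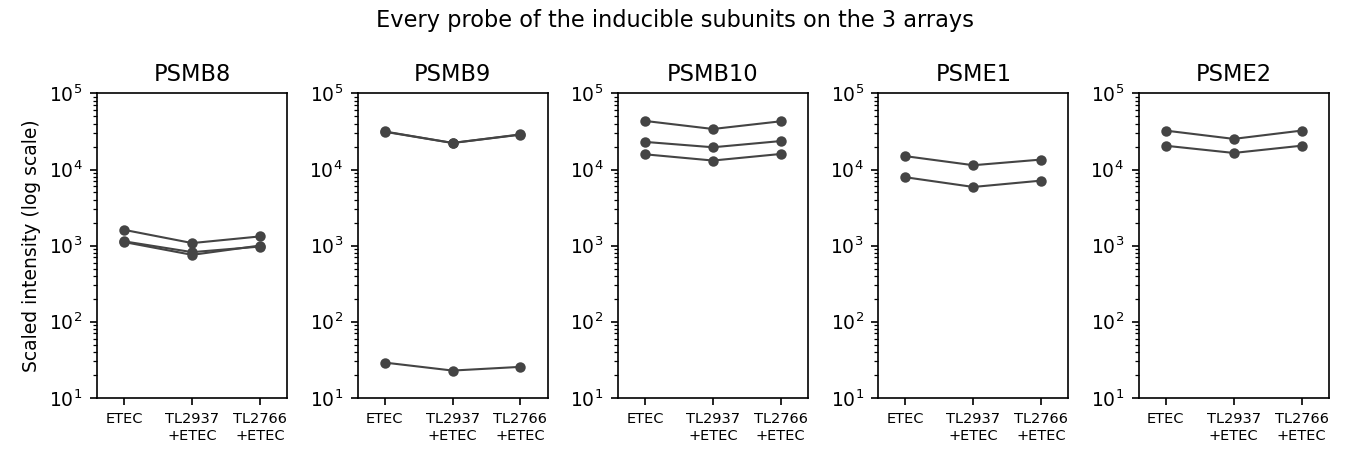
Scaled intensity (log axis) of every probe of the 5 inducible subunits against the group of the array, 1 line per probe and 1 array per group. All 13 lines reach their lowest point at TL2937+ETEC, and 9 of them have their highest at ETEC.

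Over the probes, all 13 of the inducible subunits had their lowest signal on the TL2937+ETEC array, as did 38.4% of all probes well above background on the 3 arrays. The highest was on the ETEC array for 9 (37.6% of all probes) and on the TL2766+ETEC array for 4. Against ETEC, 13 of 13 lay below 0 on the TL2937+ETEC array (52.7% of all probes did), and 12 were at least 1.2-fold lower (12.2% of all probes). On the TL2766+ETEC array 9 of 13 lay below 0 (48.8% of all probes) and 1 was at least 1.2-fold lower (10.5%). Probes of a gene read the same RNA of the same culture and are no replicates.

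The constitutive catalytic subunits, which the inducible ones replace, differed little. PSMB6 lay at 18927, 19239 and 19877. PSMB7 lay at 18487, 19052 and 19972. The log2 differences were 0.02 and 0.07 for PSMB6 and 0.04 and 0.11 for PSMB7, all within 1.2-fold. PSMB6 had no stable sign: with a normexp background correction its differences were -0.074 for TL2937 and -0.057 for TL2766, and 1 of its 3 probes gave -0.03 and -0.02. PSMB5, the counterpart of PSMB8, has no symbol of its own in the array's names. It was reached here by its gene identifier and is counted apart from the 23 members. It lay at 5288, 5133 and 5389.5, with log2 differences of -0.04 and 0.03, and its 4 probes gave -0.15 to -0.02 for TL2937. PSMB8 thus differed by -0.58 after TL2937 where PSMB5 differed by -0.04, PSMB9 by -0.50 where PSMB6 differed by 0.02, and PSMB10 by -0.35 where PSMB7 differed by 0.04.

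PSME3, which forms the nuclear PA28 gamma cap and is not part of the interferon-induced pair, lay at 2285, 2289 and 2466. Its log2 differences were 0.0022 for TL2937 and 0.11 for TL2766. PSME1 and PSME2, its relatives, stood at -0.40 and -0.36 for TL2937.

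Of the other beta subunits, which build the inner rings without a catalytic site, PSMB3 lay at 534, 607 and 614, higher on both lactobacillus arrays by 0.19 and 0.20. PSMB4 lay at 67038, 64703 and 71627, with differences of -0.05 and 0.10. Neither reached 1.2-fold. The 10 measured probes of PSMB4 gave -0.08 to 0.07 for TL2937 and 0.05 to 0.22 for TL2766.

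The alpha subunits form the gated outer rings. PSMA4 lay at 6672, 6455 and 7078 and PSMA5 at 20098, 19414 and 21152, each within 1.2-fold of ETEC and highest after TL2766. Whether TL2937 lay below ETEC was not settled for them: PSMA5 differed by -0.05, but by 0.052 with normexp and 0.0082 with cyclic loess, and PSMA4 by -0.05, but by 0.01 for its other probes. PSMA6 lay at 50854, 47035 and 56581. Its differences from ETEC were -0.11 for TL2937 and 0.15 for TL2766, both within 1.2-fold, yet the TL2937+ETEC array stood below the TL2766+ETEC array by a log2 difference of -0.27, just past 1.2-fold. All 4 measured probes of PSMA6 went that way, from -0.27 to -0.19. PSMA7 lay at 261, 236 and 219. It was the only remaining subunit with its lowest signal on the TL2766+ETEC array, at a log2 difference of -0.25 from ETEC, and was read by a single dim probe known from its description.

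The ATPases of the cap were PSMC1, at 36405, 37729 and 39141, and PSMC6, at 13493, 13835 and 14309.5. Both were lowest on the ETEC array and within 1.2-fold, with differences of 0.05 and 0.10 for PSMC1 and 0.04 and 0.08 for PSMC6. The 7 probes of PSMC6 ranged from -0.0011 to 0.14 for TL2937. A second, dimmer probe of PSMC1 gave 0.22 and 0.30.

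Among the non-ATPase subunits, PSMD14 is the deubiquitinase that removes the ubiquitin chain before degradation. It lay at 12689, 13999 and 15277. It was lowest without lactobacilli and highest after TL2766, with differences of 0.14 for TL2937 and 0.27 for TL2766, the latter just past 1.2-fold. Its other probe gave 0.20 and 0.24. PSMD1, a scaffold of the cap, lay at 32233, 34905 and 33800.2, the ubiquitin receptor PSMD4 at 7825, 8281 and 8199, and the assembly chaperone PSMD10, also called gankyrin, at 596, 609 and 665. These 3 were lowest on the ETEC array and within 1.2-fold of it on both others.

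The probes that stood for PSMA1, PSMA2 and PSMD3 by their descriptions were at background on every array, with signals between 2.33 and 11.6, and give no direction. Other probes reached PSMA1 and PSMD3 through accessions or gene identifiers. PSMA1 lay there at 18969, 17916 and 18937, and PSMD3 at 35924, 38336 and 40462. PSMA3 (-0.11 and -0.07 from ETEC), the ATPase PSMC5 (0.04 and 0.04) and the assembly factor PSMG4 (-0.15 and -0.10) were reached in the same way and were within 1.2-fold. PSMB11, the thymus form of the PSMB5 subunit, was dim, at 69.9, 70.4 and 47.2, with a difference of -0.57 on the TL2766+ETEC array. With PSMB5 and these genes added, PSMG4 excepted, 21 remaining subunits had medians of 0.024 and 0.085 for TL2937 and TL2766.

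**Figure D2:**
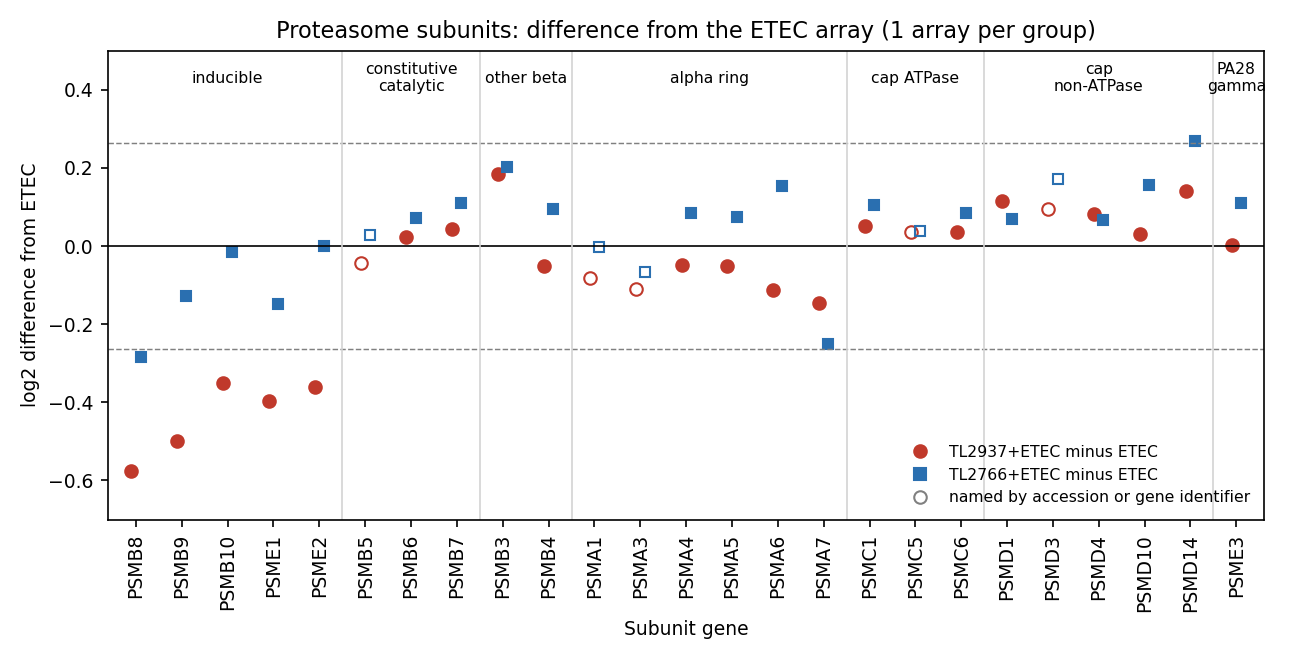
Log2 difference from the ETEC array for each subunit well above background (PSMB11 and PSMG4 not drawn), TL2937+ETEC (circles) and TL2766+ETEC (squares), 1 array per group, grouped by role; open symbols mark genes reached through accessions or gene identifiers and the dashed lines mark 1.2-fold. The 5 inducible subunits lie at -0.35 or below for TL2937, while no remaining member lies below -0.14.

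The first comparison, TL2937+ETEC against ETEC, addressed how cells kept with L. jensenii differed once they had met the PAMPs. The 5 inducible subunits had a median log2 difference of -0.40, the 15 remaining ones of 0.031 and all 4869 genes of -0.038. All 5 inducible subunits and 0 of the 15 remaining ones were at least 1.2-fold lower, as were 12.3% of all genes. None of the 20 was at least 1.2-fold higher (7.39% of all genes). The groups of subunits did not overlap: the least different inducible subunit, PSMB10, lay at -0.35, and the lowest remaining one, PSMA7, at -0.14. Of the 4869 genes, 373 lay below PSMB10. Relative to the median of the remaining subunits, the median of the inducible ones was 1.34-fold lower. None reached 1.5-fold (2.18% of all genes were that much lower) or 2-fold (0.144%), but PSMB8 passed 1.5-fold with normexp (-0.61) and with median scaling (-0.59).

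The second comparison, TL2766+ETEC against ETEC, addressed this for L. plantarum. The inducible subunits had a median of -0.13, the remaining ones of 0.096 and all 4843 genes of 0.0024. PSMB8 was the only one of the 5 at least 1.2-fold lower (8.82% of all genes were), and with the mean of its probes it fell short of this. None of the 5 was 1.5-fold lower (1.51% of all genes were) or 2-fold lower (0.248%). No remaining subunit was lower, but PSMA7 passed 1.2-fold with quantile scaling or cyclic loess (both -0.27). PSMD14 was higher (8.14% of all genes were), and fell just short with median or quantile scaling or the mean of its probes (all 0.26). Here the groups overlapped, since PSME2 lay at 0.0011 and PSMA7, read by a single dim probe, at -0.25. Apart from PSMA7, the lowest remaining subunit was PSMD4 at 0.067. The difference between the medians was -0.22. Both comparisons share the ETEC array, so an error of that array would enter both.

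The direct comparison of TL2937+ETEC with TL2766+ETEC does not use the ETEC array. It reuses the TL2937+ETEC array of the first comparison and the TL2766+ETEC array of the second, so it is no independent check of either. The inducible subunits had a median of -0.34, the remaining ones of -0.068 and all 4881 genes of -0.042. PSMB9 (-0.37), PSME2 (-0.36), PSMB10 (-0.34) and PSMB8 (-0.29) were at least 1.2-fold lower after TL2937, and PSME1 (-0.25) was not (7.15% of all genes were lower). With cyclic loess PSMB8 fell just short (-0.26), which left 3 of 5. PSMA6 was the one remaining subunit that was lower, and fell short of 1.2-fold with normexp, quantile scaling, cyclic loess or the mean of its probes (-0.22 to -0.20). None of the 20 was higher (4.16% of all genes). The groups overlapped only between PSME1 at -0.25 and PSMA6 at -0.27, and the median of the inducible subunits lay 0.27 below that of the remaining ones on the log2 scale. None of the 5 was 1.5-fold (1.02% of all genes) or 2-fold lower (0.205%). Of the 13 probes of the inducible subunits, all lay below 0 (55.7% of all probes did) and 10 were at least 1.2-fold lower (7.36%).

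**Figure D3:**
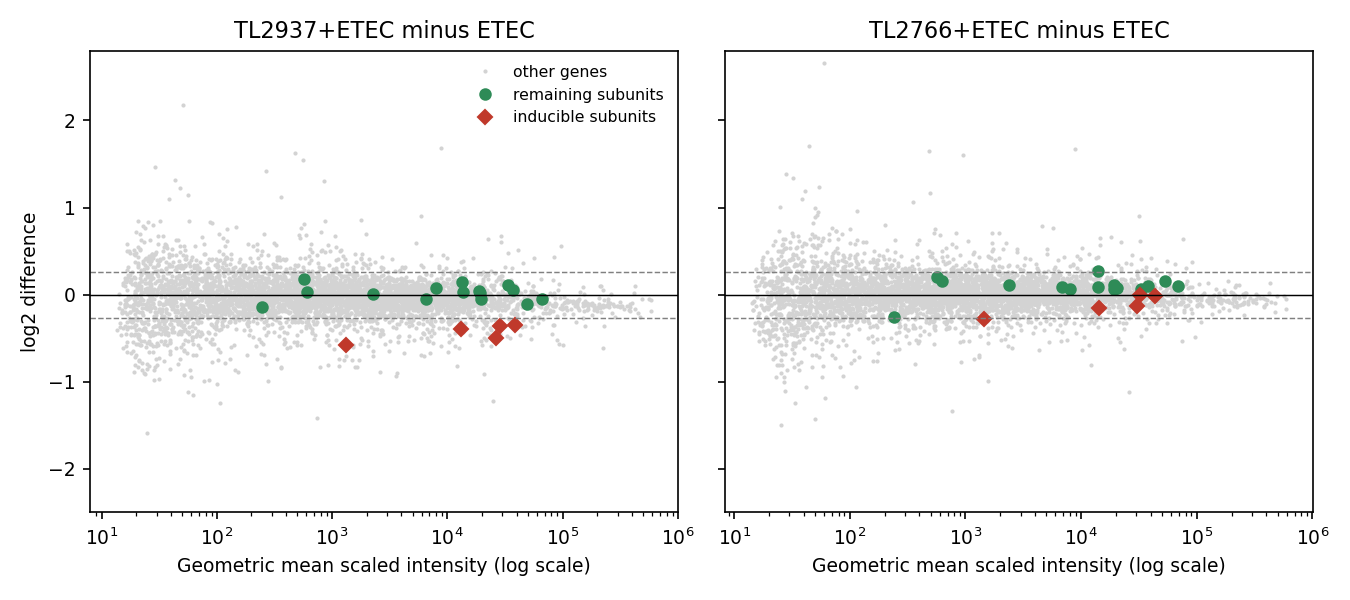
Log2 difference from ETEC against the geometric mean scaled intensity (log axis) of each gene well above background on both arrays, for TL2937+ETEC (left) and TL2766+ETEC (right), 1 array per group; grey points are other genes, green circles remaining subunits, red diamonds inducible subunits and dashed lines 1.2-fold. The red diamonds lie below the lower dashed line on the left and between it and 0.0011 on the right, except PSMB8.

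By role, the median log2 difference after TL2937 was -0.50 for the 3 inducible core subunits and -0.38 for the PA28 pair. It was 0.034 for the 2 constitutive catalytic subunits, 0.067 for the 2 other beta subunits and -0.081 for the 4 alpha subunits. For the 2 ATPases it was 0.044 and for the 4 non-ATPase subunits 0.098. After TL2766 these medians were -0.13, -0.074, 0.091, 0.15, 0.08, 0.095 and 0.11 in the same order. Of the 46 measured probes of the remaining subunits, 37 had their highest signal on the TL2766+ETEC array, as did 32.2% of all probes well above background on the 3 arrays, and 29 had their lowest on the ETEC array, as did 36.6% of all.

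**Figure D4:**
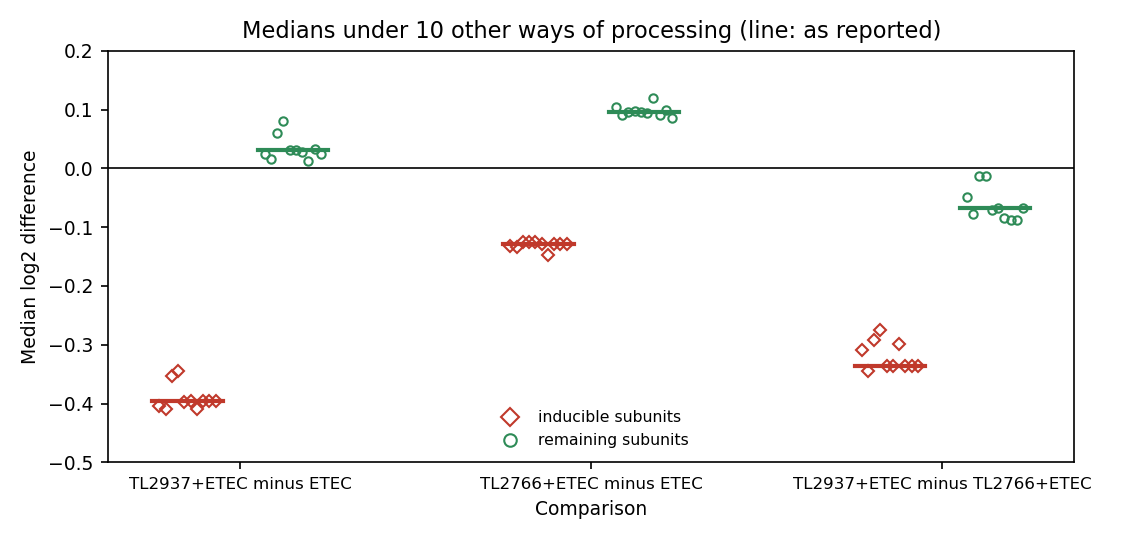
Median log2 difference of the inducible (diamonds) and remaining subunits (circles) in the 3 comparisons under each of 10 other ways of processing, 1 symbol each, with a line at the reported value. The inducible median stays between -0.41 and -0.34 for TL2937 against ETEC and between -0.15 and -0.12 for TL2766 against ETEC.

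Position in the genome was compared through the order of genes in RefSeq's annotation of assembly Sscrofa11.1, since the array's own records give no coordinates. PSMB8 and PSMB9 lie on chromosome 7 in the MHC region, in the order TAP2, PSMB8, TAP1, PSMB9, BRD2, SLA-DMB and SLA-DMA. TAP1 and TAP2 form the transporter that carries peptides into the endoplasmic reticulum. TAP2 lay at 16039, 11874 and 14179.9, and TAP1 at 2632, 1943 and 2422. Their differences from ETEC were -0.43 and -0.44 for TL2937 and -0.18 and -0.12 for TL2766. BRD2, a chromatin reader that stands in the same row of genes, lay at 28743, 27813 and 27858 and differed by -0.05 and -0.05. The class II editing genes SLA-DMB (-0.54 and -0.27) and SLA-DMA (-0.61 and -0.31) follow it.

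PSME2 and PSME1 are close neighbours too, on another stretch of chromosome 7, with EMC9 between them and IRF9 and FITM1 on either side. EMC9 differed by 0.11 for TL2937 and -0.10 for TL2766, where PSME2 and PSME1 differed by -0.36 and -0.40 for TL2937. IRF9, a partner of STAT2 in interferon signalling, differed by -0.08 and -0.04. PSMB10 lies on chromosome 6 beside LCAT (0.13 and -0.15), and PSMB5 on chromosome 7 beside PSMB11.

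**Figure D5:**
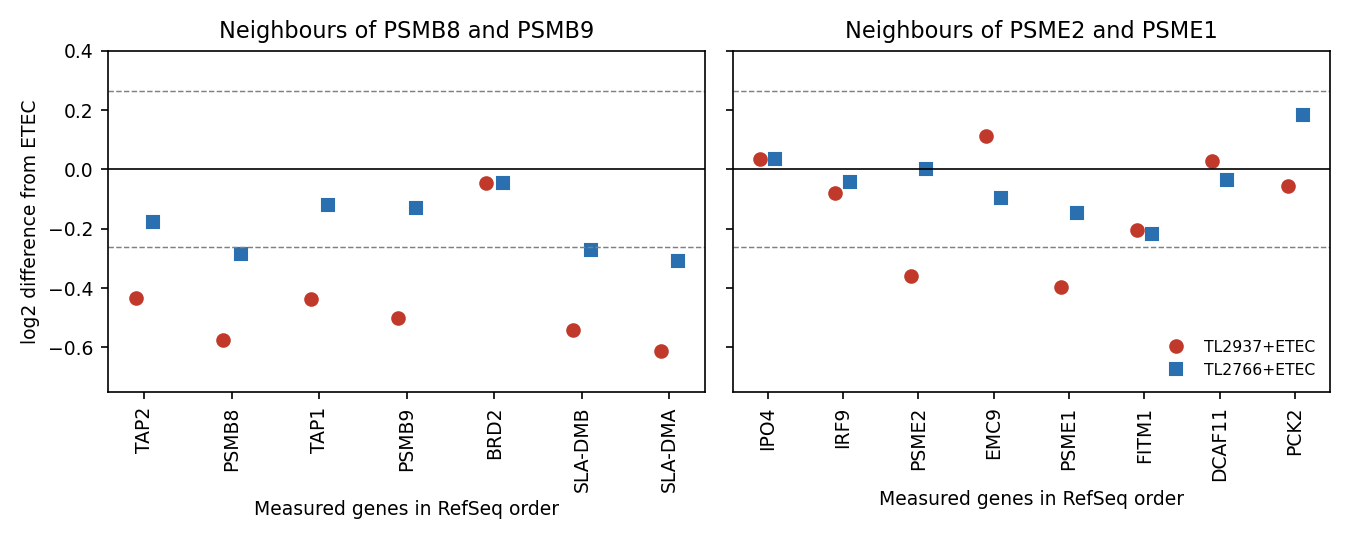
Log2 difference from the ETEC array for measured genes in RefSeq order around PSMB8 and PSMB9 (left) and around PSME2 and PSME1 (right), TL2937+ETEC (circles) and TL2766+ETEC (squares), 1 array per group, dashed lines at 1.2-fold. BRD2 on the left and EMC9 on the right lie at -0.05 and 0.11 for TL2937 between genes at -0.36 or below.

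The immunoproteasome feeds peptides to MHC class I, and 12 genes of that pathway outside the subunits were measured. Their median was -0.24 for TL2937 and -0.12 for TL2766 against ETEC, with 5 of 12 and 0 of 12 at least 1.2-fold lower (12.3% and 8.82% of all genes were) and none higher (7.39% and 8.14%). Beside TAP1 and TAP2, these 5 were the class I heavy chains SLA-3 (-0.46) and SLA-5 (-0.40) and the light chain B2M (-0.36). The other SLA genes of the list, SLA-1 (-0.24), SLA-6 (-0.17), SLA-8 (-0.08) and the dim SLA-7 (-0.06), were within 1.2-fold for TL2937. Further probes of SLA-1 and SLA-8 reached -0.40 and -0.30. For TL2766, the largest differences were those of TAP2 (-0.18), NLRC5 (0.17), SLA-3 (-0.17) and B2M (-0.15), all within 1.2-fold. NLRC5, the transactivator of class I genes, differed by 0.00031 after TL2937, at 115, 115 and 129. Between the lactobacillus arrays the median was -0.16, and 2 of 12 were lower after TL2937 (7.15% of all genes were), TAP1 (-0.32) and SLA-3 (-0.29), while TAP2 (-0.26) and SLA-5 (-0.25) fell short of 1.2-fold. Class I genes are alike in sequence, and a probe of one may also have bound another.

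Of 12 regulators of interferon signalling, 3 were at least 1.2-fold lower for TL2937 (12.3% of all genes were) and 0 for TL2766 (8.82%), with medians of -0.14 and -0.036. IRF7, which drives interferon genes, differed by -0.53 and -0.04, STAT2 by -0.52 and -0.21 and IRF8, at dim signals of 26.7, 20.2 and 22.9, by -0.40 and -0.22. The interferon receptor chain IFNGR1 differed by -0.13 and -0.26, though its 4 probes disagreed in sign (up to 0.04 and 0.10), and IFNGR2 by -0.13 and 0.10. IRF1, a known activator of PSMB8 and PSMB9, lay at 5448, 4893 and 5617 and was within 1.2-fold on both lactobacillus arrays (-0.16 and 0.04). The kinase JAK2 differed by -0.00078 and -0.014. Between the lactobacillus arrays the median was -0.12, and 2 of 12 were lower after TL2937 (7.15% of all genes), IRF7 (-0.48) and STAT2 (-0.30). IFNGR2 differed by -0.23 and IRF1 by -0.20 there.

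Of 9 genes of ubiquitin and its relatives, 3 were at least 1.2-fold lower for TL2937 (12.3% of all genes were) and 2 for TL2766 (8.82%), with medians of -0.19 and -0.069. UBD, also called FAT10, is a ubiquitin-like protein that delivers its targets to the proteasome. It lay at 3508, 1899 and 2653, with differences of -0.89 and -0.40. The ISG15 ligase HERC5 differed by -0.65 and -0.31 and the ISG15 protease USP18 by -0.51 and -0.22. ISG15 itself differed by -0.25 and -0.057, and the conjugating enzyme UBE2D2 by -0.075 and 0.095. UBB, which encodes ubiquitin, differed by -0.19 and -0.069. Between the lactobacillus arrays the median was -0.17, and 3 of 9 were lower after TL2937 (7.15% of all genes): UBD (-0.48), HERC5 (-0.34) and USP18 (-0.29), with ISG15 at -0.20.

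Among partners of the proteasome outside the subunit series, SEM1, UCHL5, RAD23B and UBQLN4 were measured, and 0 of 4 differed 1.2-fold from ETEC on either array. Of all genes, 3910 of 4869 for TL2937 and 4022 of 4843 for TL2766 were likewise within 1.2-fold. The medians of the 4 partners were 0.041 and 0.032. The shuttle factor RAD23B differed by 0.09 and 0.02, and its 7 probes gave 0.0083 to 0.20 and 0.016 to 0.26. The deubiquitinase UCHL5 differed by 0.10 and 0.11 and the cap component SEM1 by -0.05 and -0.08. A further probe of UBQLN4 gave -1.92 and -1.93, against -0.01 and 0.05 from the brightest. Of the genes that raise proteasome synthesis when its activity falls, NGLY1, the deglycosylase that activates the transcription factor NFE2L1, lay at 5305, 4121 and 4455, with differences of -0.36 and -0.25. VCP, the segregase of the same route, differed by 0.02 and 0.08, although one of its 6 probes gave -0.37 and -0.40. Descriptions named a few further proteasome factors: the ECM29 homolog (0.13 and -0.06), PAAF1 (0.17 and 0.02) and the maturation factor POMP, which was dim at 31.8, 39.7 and 31.0 (0.32 and -0.04). A pair of probes described as an alpha subunit of unstated number lay at 46.5, 64.8 and 54.1 and at 116, 144 and 120. Both differed from ETEC by more than 1.2-fold after TL2937, upwards (0.48 and 0.32), and by less after TL2766 (0.22 and 0.05). A probe described by the alpha subunit of a distant species gave -0.26 and -0.15. These 3 probes could not be given to a member and are in none of the counts.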

How the data were processed

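RNA of 3 cultures, 1 per group, was measured on 1-colour porcine arrays on 1 slide, so culture, array position and group cannot be told apart. Per the labels' protocols, 200 ng of RNA was labelled with Cy3. Per the file headers, Agilent Feature Extraction 10.7.3.1 made the processed intensity, subtracting background within each array. The authors' deposited value table held the same intensity, rounded, on a linear scale (medians 37, 40.9 and 38.8), within 0.496%.

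Here log2 of the processed intensity was taken and each array's 75th percentile subtracted. Control spots and outlier spots (8, 9 and 4) were left out, and spots of a probe averaged. A gene was read by its brightest probe (mean of the 3 arrays). For scaled intensities the values were returned to a linear scale and multiplied by 483, the 75th percentiles' geometric mean. Of 43603 probes, 10191 were named by the array and 3492 through accessions or gene identifiers in RefSeq's Sscrofa11.1 table. A threshold of 1.2-fold was used, with both arrays well above background. No test was possible. The members, lists and threshold were chosen with earlier results of these data known. Named were the inducible members and their counterparts, and other members that differed 1.2-fold, were extreme in their role or had disagreeing probes. From each further list except the cell type markers, the 4 genes that differed most in each comparison were named. Other members, JAK2, UBB, further SLA genes, genome neighbours and some markers were named outside this rule. A gene that the interferon list would hold is not reported here. Promoter motifs were not analysed here. The steps were checked on simulated data. Alternatives were normexp with an offset of 50, other scalings, the authors' table, other filters and other probe rules. R 4.3.3 with limma 3.58.1, and Python 3.11.15 with pandas 2.3.3, numpy 2.4.6 and matplotlib 3.10.9, were used.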

Additional observations from a re-analysis of the deposited data

How the results depend on the processing

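No paired analysis was possible because each group had 1 array. Over 10 alternatives the median of the inducible subunits minus that of the remaining ones lay between -0.44 and -0.41 for TL2937+ETEC against ETEC, between -0.27 and -0.21 for TL2766+ETEC against ETEC, and between -0.28 and -0.21 for the direct comparison, with no change of sign. Of 597 values of single subunits, 593 moved by less than the spread of repeated spots, 4 moved further and 0 called values changed sign. Many of the 597 could not move, so this count says little about stability. Other filters and added accession-named subunits leave the brightest probe of a detected member as it was. A mean over 1 probe is that probe, and the authors' table is the same intensity, rounded. A called value that fell short of 1.2-fold did not count as a change of sign. Counts depended on the threshold. At 1.5-fold and at 2-fold, 0 of the 5 inducible subunits were lower in any comparison, against 5, 1 and 4 at 1.2-fold, but PSMB8 passed 1.5-fold for TL2937+ETEC with normexp (-0.61) and median scaling (-0.59). With the mean of all probes 0 were lower for TL2766+ETEC, and with cyclic loess 3 in the direct comparison. Without a background filter, 3, 2 and 3 remaining subunits were lower in the 3 comparisons, against 0, 0 and 1, through members at background. For TL2766+ETEC, 1 was lower with quantile scaling, with cyclic loess and with accession-named subunits added. In the direct comparison, 0 were lower with normexp, quantile scaling, cyclic loess, the mean of all probes, 1.5-fold or 2-fold. The cause of these shifts was not tested. Probes near background give no direction at this depth.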
